A study of Mus musculus with 21 samples.

Results

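The 36 genes described here encode proteins that fold, check and discard newly made proteins in the endoplasmic reticulum (ER), together with the sensors of the unfolded protein response. They were taken by gene symbol, and all 36 were found among the 45706 genes of the count table. A filter on low counts kept 35 of them among the 15230 genes tested. The exception was Derl3, a derlin of the degradation machinery, which had 1 read in 1 of 21 libraries.

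Fibroblasts of the mouse mammary gland were cultured and profiled by RNA-seq, with 7 groups of 3 libraries each (21 in all). The study asked how loss of the cytosolic HSP90 isoforms changes RNA in normal and tumour-derived fibroblasts. Carcinoma-associated fibroblasts (CAF) came from mammary tumours of MMTV-PyMT mice, in which a mouse mammary tumour virus promoter drives the polyoma middle T oncogene. Normal fibroblasts (NF) came from healthy mammary glands of FVB/n mice. Each kind is a single numbered line, CAF1 or NF1, so a difference between CAF and NF cannot be told apart from a difference between these lines. The 3 CAF groups received siRNA against Hsp90aa1, siRNA against Hsp90ab1 or control siRNA (siCtr), all with vehicle. The 4 NF groups received siHsp90aa1 with TGFb1, siHsp90ab1 with TGFb1, siCtr with TGFb1 or siCtr with vehicle. All cells were grown in high-glucose DMEM with 10% serum and transfected with 100 nM siRNA, 5 h before TGFb1 was added where used (5 ng/mL, for 43 h), and RNA was extracted at 48 h. The knockdowns in NF were thus measured only in the presence of TGFb1, and those in CAF only without it. The sources used here give neither the age of the animals nor the siRNA sequences.

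Proteins that enter the secretory pathway pass through the SEC61 channel into the ER lumen, where the HSP70 chaperone BiP (Hspa5), the HSP90 chaperone GRP94 (Hsp90b1), the lectins calreticulin and calnexin and the protein disulfide isomerases fold them. Chains that fail to fold are pulled back to the cytosol by the SEL1L-HRD1 complex and degraded, a process called ER-associated degradation (ERAD). IRE1 (Ern1), PERK (Eif2ak3) and ATF6 sense unfolded protein, and fibroblasts that secrete collagen are heavy users of this machinery.

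The regulatory sequences of these genes are shown first because they name a group of members whose RNA can be read together. ATF6 is known to act with NF-Y on the ER stress response element, which is CCAAT, 9 bases of any kind and CCACG, and ATF6 and XBP1 on a second element, which is ATTGG, any 1 base and CCACG. Both were searched on both strands of RefSeq promoter windows (GRCm38.p6, 250 bases before to 50 after each start), which were found for 30 of the 36 members. The first element was present in 9 of these 30 members, Calr, Canx, Creld2, Derl3, Dnajc3, Hsp90b1, Hspa5, Pdia6 and Syvn1, and in 0.137% of 27025 genes with a window. The second was present in Dnajb11, past the start, and Herpud1, and in 0.0444% of genes. The core of the XBP1 site, TGACGTGG, was present in 1 member, Txndc5, and in 0.714% of genes, and no match overlapped another. A match describes letters and does not show binding.

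The 6 stretches below hold an exact match and belong to members whose values are given further on. Each is written on the strand of its gene, and capitals mark the element, which in Calr and at the second place in Hsp90b1 lies on the opposite strand and so reads as its reverse complement. Hspa5 lies at chr2:34772020-34772048 (plus strand), Hsp90b1 with 2 elements at chr10:86705513-86705676 (minus strand) and Calr at chr8:84847055-84847113 (minus strand). Pdia6 lies at chr12:17266471-17266529 (plus strand), Syvn1 at chr19:6046512-6046570 (plus strand) and Herpud1 at chr8:94386357-94386407 (plus strand).
Hspa5: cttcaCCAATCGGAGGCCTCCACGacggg
Hsp90b1: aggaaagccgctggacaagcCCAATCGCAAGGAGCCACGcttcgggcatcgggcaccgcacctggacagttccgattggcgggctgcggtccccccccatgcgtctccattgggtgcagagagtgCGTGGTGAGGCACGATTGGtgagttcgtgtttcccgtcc
Calr: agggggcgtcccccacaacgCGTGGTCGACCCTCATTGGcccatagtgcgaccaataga
Pdia6: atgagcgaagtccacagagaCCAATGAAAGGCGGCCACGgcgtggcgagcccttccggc
Syvn1: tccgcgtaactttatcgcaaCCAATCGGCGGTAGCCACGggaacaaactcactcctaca
Herpud1: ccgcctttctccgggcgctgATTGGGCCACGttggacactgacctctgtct

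The last sequence of interest is the stretch of Xbp1 RNA that IRE1 removes without the spliceosome to make the active transcription factor. The removed bases are in capitals, from the GENCODE vM21 transcripts of Xbp1 on chromosome 11, where the stretch was found in 3 of 4 transcripts.
Xbp1 splice site: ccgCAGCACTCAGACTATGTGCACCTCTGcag
Counts per gene do not separate RNA with and without these 26 bases, so the values given for Xbp1 are the sum of its spliced and unspliced RNA.

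Library totals ranged from 35087180 to 70421576 counts, and replicates differed by far more than counting noise (chi-square per degree of freedom from 16.7 to 150). The labels do not say that replicates were separate cultures or animals, so p-values measure only the spread between these libraries, which may be technical. Hsp90aa1 stood at 10.1% of its control with its own siRNA in CAF and 12.4% in NF, and Hsp90ab1 at 9.96% and 13.3% with its own. Hsp90aa1 also stood at 47.6% and 48.1% with siHsp90ab1, without passing the test. Mitochondrial genes took 1.67% to 4.30% of counts, with the highest share in vehicle replicate 1 of NF. Of the fibroblast markers, Col1a1, Col1a2, Pdgfrb and Vim were above 58 TPM in every library, whereas Thy1 was between 211 and 282 TPM in CAF and at most 0.611 TPM in NF. Epcam, Krt5, Cdh1 and Ptprc did not exceed 0.123 TPM in any library, and Cd3e was at 0. Other epithelial and immune markers were higher, with Krt8, Krt18 and Krt14 at up to 0.458, 0.570 and 1.34 TPM. The immune markers Csf1r and Cd68 lay at 0.601 to 3.60 and 1.31 to 4.89 TPM. Of the endothelial and pericyte markers Kdr reached 4.43 TPM and Mcam 3.70 TPM, and the others at most 0.925 TPM. In bulk RNA, fewer cells of a kind and less RNA per cell cannot be told apart.

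Levels of different genes were compared as TPM, transcript abundances corrected for length and library size. Calreticulin (Calr) was the most abundant member, at 1085 TPM on average over the 21 libraries, followed by Hspa5 at 895 TPM, the disulfide isomerase P4hb at 875 TPM and Hsp90b1 at 633 TPM. The 3 sensors were the least abundant of the tested members apart from the BiP co-chaperone Dnajb9 at 20.4 TPM. Ern1 averaged 21.9 TPM, Atf6 19.0 TPM and Eif2ak3 18.2 TPM. Together the 36 genes made up 0.842% ± 0.0250 of TPM in NF with TGFb1 and siCtr, against 0.670% ± 0.0296 in NF with vehicle (SD, n = 3 each). In CAF the share was 0.755% ± 0.0555 with siHsp90aa1 and 0.825% ± 0.0168 with siHsp90ab1, against 0.820% ± 0.0419 with siCtr. In NF with TGFb1 it was 0.715% ± 0.0618 with siHsp90aa1 and 0.812% ± 0.0310 with siHsp90ab1. The 3 NF vehicle libraries, at 0.638% to 0.697%, lay below all NF libraries with TGFb1 and siCtr and below all CAF libraries with siCtr.

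**Figure D1:**
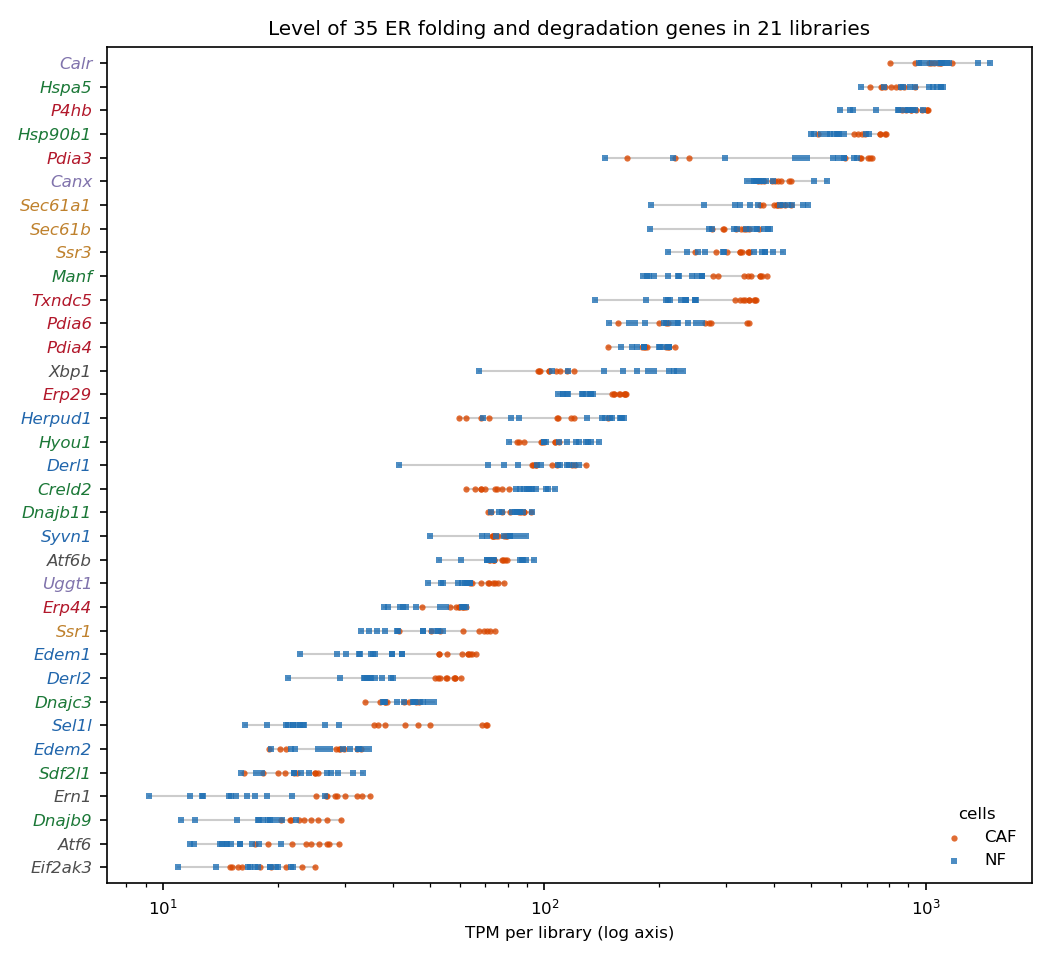
Level of the 35 tested members in TPM (log axis) in each of 21 libraries, CAF as circles and NF as squares, ordered by the mean; the colour of a name marks its role. Levels span from 18.2 TPM for Eif2ak3 to 1085 TPM for Calr on average.

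Differences between groups were tested with edgeR's quasi-likelihood test, and the threshold was an adjusted p of 0.05 (Benjamini-Hochberg over all 15230 genes). The main fit has no term for the replicate number, which the labels give as a batch, so its p-values leave that pairing out. Members that a fit with the number as a block added are given beside the results of the main fit. The share of all genes at an unadjusted p under 0.05 was not counted. Numbers at that threshold thus stand without it, or with a lower bound from the rank of a member by p. Log2 fold changes are given with their standard error (SE). Levels between samples are CPM after TMM normalisation (counts scaled to the size of each library), with the 3 values in the order of replicates 1, 2 and 3.

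**Figure D2:**
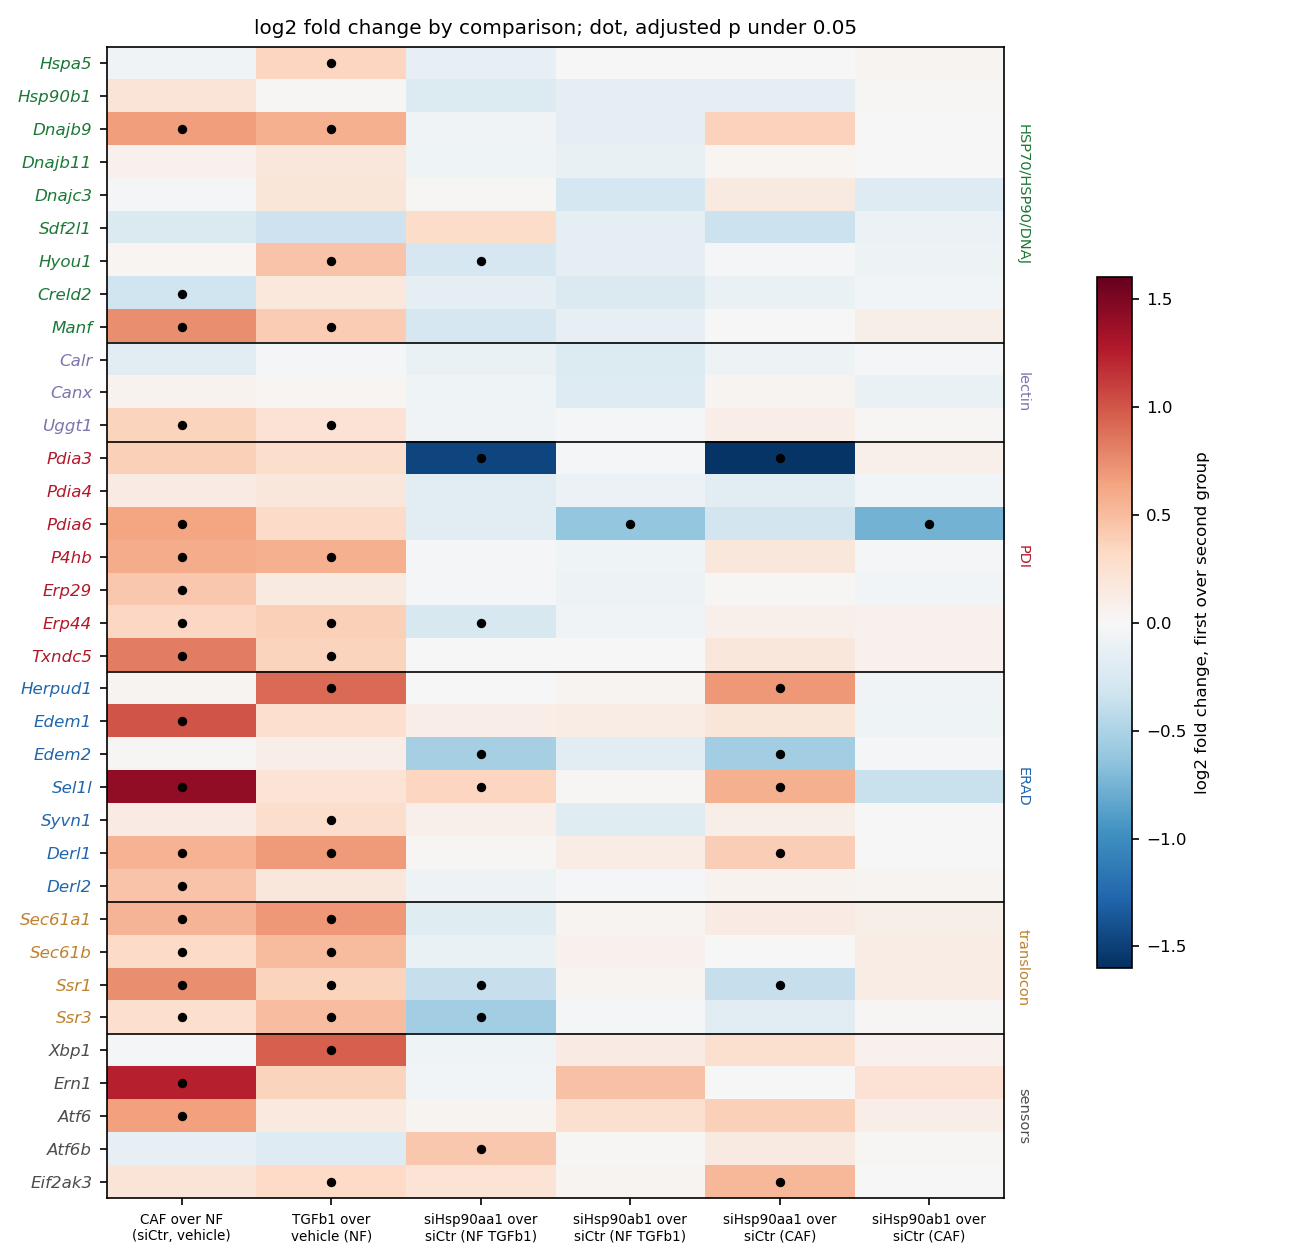
Log2 fold change of the 35 tested members (rows, by role) in 6 comparisons (columns), with red for higher and blue for lower in the first-named group and a dot where the adjusted p was under 0.05. The first 2 columns hold 36 dots, of which 35 are on red; the 4 knockdown columns hold 17, and Pdia3 is the darkest blue under both siHsp90aa1 columns.

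TGFb1 raised a large share of these genes in NF. Of the 35 tested members 17 rose and 0 fell, where 29% of all genes tested passed in either direction, 14.6% higher and 14.4% lower. At an unadjusted p under 0.05 the numbers were 25 higher and 0 lower. Derl2, with the largest p of these 25, ranked 5757th of 15230 genes, so at least 5757 genes lay under 0.05 in either direction. DESeq2 also called 17 higher and 0 lower, where it called 4794 of 15230 genes in either direction. The median log2 fold change of the members was 0.29, and that of all genes -0.03. In 21 members all 3 libraries with TGFb1 lay above all 3 with vehicle, which was so for 19% of all genes tested.

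The largest rises were in Xbp1 and Herpud1. Xbp1 (ENSMUSG00000020484, GRCm38 chr11:5520659-5525893, plus strand), the transcription factor downstream of IRE1, had 169, 193 and 204 CPM with TGFb1, against 77.2, 104 and 111 with vehicle. All TGFb1 libraries lay above all vehicle libraries, with a log2 fold change of 0.95 ± 0.14 (SE; edgeR adjusted p = 5.07e-05). Herpud1 (ENSMUSG00000031770, chr8:94386438-94395377, plus strand), an ER membrane protein that brings substrates to the HRD1 ligase, had 128, 131 and 140.3 CPM with TGFb1, against 62.5, 73.9 and 77.4 with vehicle. The groups did not overlap, and the change was 0.90 ± 0.19 (edgeR adjusted p = 0.00167). Of the sensors, Eif2ak3 (PERK) had 39.7, 36.7 and 44.8 CPM with TGFb1, against 28.8, 30.8 and 37.7 with vehicle, and passed although 1 vehicle library lay above a TGFb1 library (0.32 ± 0.11, edgeR adjusted p = 0.0342). Ern1 (0.35 ± 0.15), Atf6 (0.16 ± 0.16) and Atf6b (-0.20 ± 0.11) did not pass.

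All 4 members of the translocon group rose with TGFb1. Sec61a1, the channel subunit through which chains enter the ER, had 609.6, 676 and 756 CPM with TGFb1, against 348, 425 and 494 with vehicle, and the change was 0.69 ± 0.11 (edgeR adjusted p = 1.61e-04). Sec61b, a small channel subunit, rose by 0.50 ± 0.08, and Ssr3 and Ssr1, subunits of the translocon-associated TRAP complex, by 0.50 ± 0.09 and 0.35 ± 0.08. No library with TGFb1 overlapped a vehicle library in any of the 4.

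Of the 9 luminal chaperones and their cofactors 4 rose. Hspa5 (ENSMUSG00000026864, chr2:34771970-34777547, plus strand) had 1190.5, 1177 and 1185 CPM with TGFb1, against 969.6, 899 and 931 with vehicle, a narrow group well above the other. Its change was 0.34 ± 0.08 (edgeR adjusted p = 0.00413). Hyou1, a large HSP70-related chaperone, had 298, 307 and 284 CPM, against 204, 229 and 213 with vehicle (0.46 ± 0.09, edgeR adjusted p = 8.76e-04). Dnajb9 and the secreted ER protein Manf rose by 0.57 ± 0.14 and 0.41 ± 0.11. Hsp90b1, the ER member of the HSP90 family, did not pass: it had 1067, 839.8 and 858 CPM with TGFb1, against 1181, 757 and 793 with vehicle, and vehicle replicate 1 was the highest of the 6. Sdf2l1, a BiP cofactor, had a change of -0.34 ± 0.17 and did not pass.

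Of the 7 disulfide isomerases and related proteins 3 rose with TGFb1. P4hb, which is also the beta subunit of the collagen prolyl hydroxylase, had 1051, 1121 and 1222 CPM, against 685, 764 and 844 with vehicle (0.57 ± 0.08, edgeR adjusted p = 3.20e-05). Erp44, which retains partner proteins in the early secretory pathway, and the isomerase Txndc5 rose by 0.39 ± 0.09 and 0.36 ± 0.08. Pdia3, Pdia4, Pdia6 and Erp29 did not pass, at 0.29, 0.18, 0.31 and 0.15, although in each of them all TGFb1 libraries lay above all vehicle libraries. Of the lectin group, the glucosyltransferase Uggt1, which marks misfolded glycoproteins for another folding round, rose by 0.24 ± 0.07, and Calr (-0.02 ± 0.11) and Canx (0.03 ± 0.08) did not pass. In ERAD, Derl1, a channel protein of retrotranslocation, had 147, 178 and 189.6 CPM, against 77.5, 119 and 126 with vehicle (0.68 ± 0.14, edgeR adjusted p = 0.00115). Syvn1, the HRD1 ubiquitin ligase, rose by 0.28 ± 0.10, and its partner Sel1l did not pass at 0.22 ± 0.09.

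**Figure D3:**
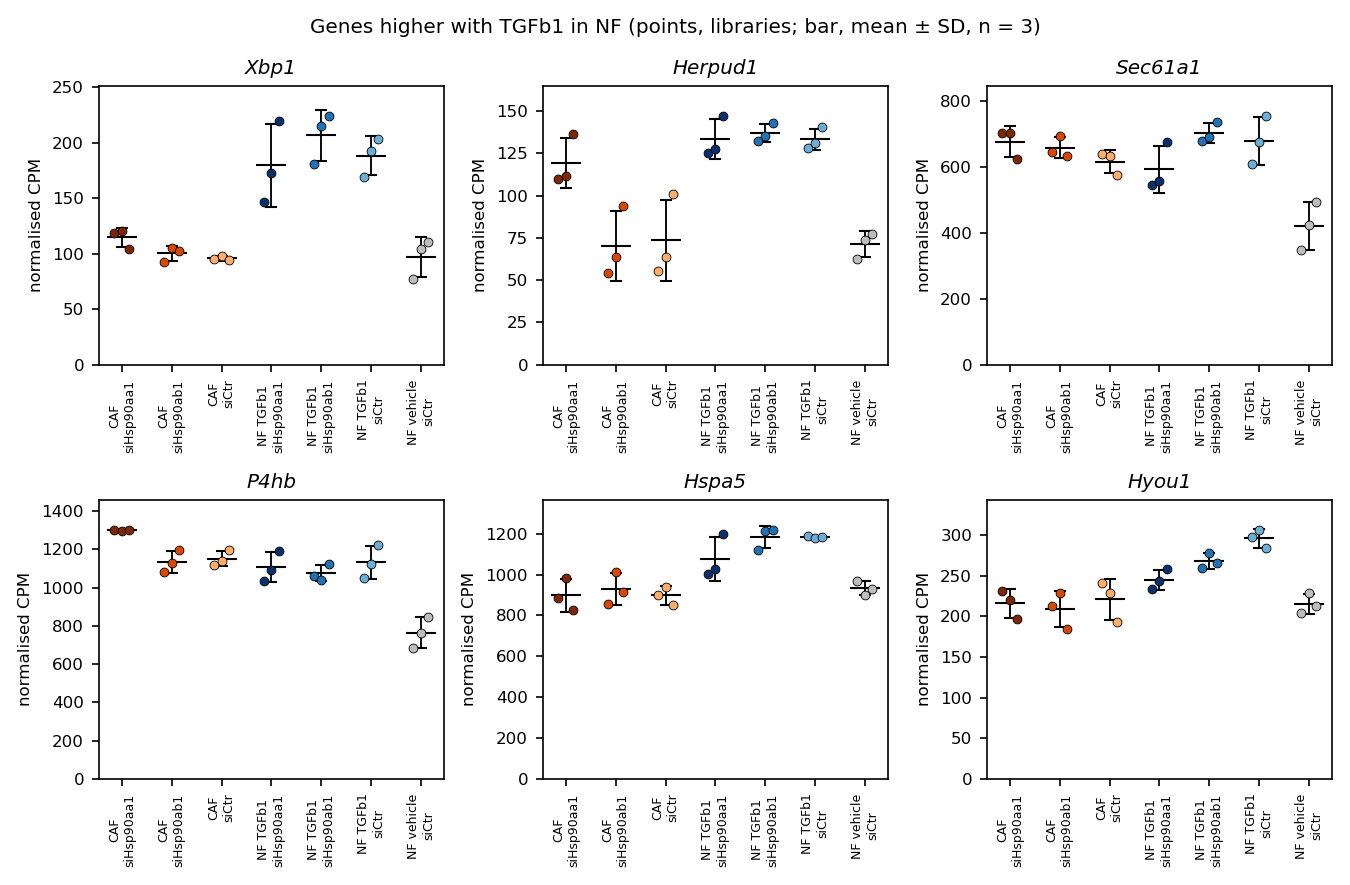
Normalised CPM (y axis, from 0) of 6 members that rose with TGFb1 in NF, by group (x axis); points are libraries and bars the mean ± SD (n = 3). In each panel the 3 NF libraries with TGFb1 and siCtr lie above the 3 with vehicle, from 169 to 204 CPM against 77.2 to 111 for Xbp1.

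Several of the small rises depended on single libraries. The edgeR adjusted p of Syvn1 was 0.0729, 0.0850 and 0.122 without TGFb1 replicate 1, 2 or 3 and 0.149 and 0.0683 without vehicle replicate 1 or 2. That of Uggt1 was 0.103, 0.0594 and 0.0504 without TGFb1 replicate 1, 2 or 3 and 0.104 and 0.115 without vehicle replicate 2 or 3. That of Eif2ak3 was 0.0687 and 0.194 without TGFb1 replicate 1 or 3 and 0.138 and 0.117 without vehicle replicate 1 or 2, and Manf had 0.0546 without vehicle replicate 3. The other 13 rises passed whichever single library was left out. Without vehicle replicate 1, Ern1 passed as higher (0.51, adjusted p = 0.0179) and Atf6b and Sdf2l1 as lower (-0.36 and -0.53, adjusted p = 0.00141 and 0.0173). Sdf2l1 also passed without TGFb1 replicate 2 (-0.54, adjusted p = 0.0401). Edem1 passed as higher without TGFb1 replicate 1 or vehicle replicate 3 (adjusted p = 0.0443 and 0.0401), and Sel1l without TGFb1 replicate 1 (adjusted p = 0.0394). In a fit of only these 2 groups Dnajb9, Eif2ak3, Syvn1 and Uggt1 did not pass (adjusted p = 0.0643, 0.109, 0.164 and 0.0878) and Pdia6 did (0.33, adjusted p = 0.0282). With the replicate number as a block 23 members rose, the added ones being Creld2, Derl2, Dnajb11, Edem1, Ern1 and Sel1l. With TGFb1 the summed level of the 6 epithelial markers was 1.07 to 1.66 TPM, against 0.186 to 0.273 TPM with vehicle. That of the 3 pericyte markers was 1.65 to 3.21 TPM, against 0.479 to 0.752 TPM. The 5 fibroblast markers summed to 6330 to 9130 TPM with TGFb1, against 2824 to 4440 TPM with vehicle. Epcam and Cdh1 were at or near 0 in both groups, and the part of the other markers in these results was not tested.

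The largest differences between CAF and NF were in Sel1l, Ern1 and Edem1, all higher in CAF. With siCtr and vehicle in both, 18 of the 35 members were higher and 1 lower in CAF, where 61.6% of all genes tested passed in either direction, 31.6% higher and 30% lower. The share of members that passed, 19 of 35, was thus near that of all genes, and most were on the higher side. The members' median was 0.30 and that of all genes 0.00. In 19 members all CAF libraries lay above all NF libraries and in 1 below them. This was so for 31.6% and 29.8% of all genes tested. This comparison shares the vehicle libraries of NF with the one for TGFb1, so the folds of each are given on their own.

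The ERAD group held 2 of the 3 largest differences. Sel1l (ENSMUSG00000020964, chr12:91806043-91849157, minus strand), the adaptor of the HRD1 ligase, had 135, 139 and 155 CPM in CAF, against 49.0, 53.1 and 58.6 in NF, with no overlap and a log2 fold change of 1.42 ± 0.10 (edgeR adjusted p = 5.06e-10). Edem1, a lectin that takes misfolded glycoproteins to degradation, had 166, 186 and 199 CPM in CAF, against 81.3, 91.8 and 101 in NF (1.01 ± 0.11, edgeR adjusted p = 2.64e-07). In both genes every CAF library lay above every NF library. Derl1 and Derl2 were higher by 0.56 ± 0.14 and 0.46 ± 0.09, and Edem2 (0.02 ± 0.12), Herpud1 (0.04 ± 0.19) and Syvn1 (0.13 ± 0.10) did not pass.

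Of the sensors, Ern1 had 90.1, 92.1 and 89.0 CPM in CAF, against 46.1, 40.7 and 27.6 in NF, where replicate 3 was lowest (1.25 ± 0.15, edgeR adjusted p = 9.76e-07). Atf6 had 99.4, 83.0 and 67.5 CPM in CAF, against 65.1, 46.8 and 46.1 in NF (0.66 ± 0.16, edgeR adjusted p = 0.00131), and neither gene overlapped between the groups. Xbp1, the substrate of IRE1, had 95.3, 98.3 and 94.0 CPM in CAF, against 77.2, 104 and 111 in NF, and did not pass (-0.02 ± 0.14, edgeR adjusted p = 0.906). Eif2ak3 (0.21 ± 0.11) and Atf6b (-0.13 ± 0.11) did not pass either.

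Of the isomerases 5 of 7 were higher in CAF. Txndc5 had 430.4, 433 and 456 CPM, against 212, 258 and 278 in NF (0.82 ± 0.08, edgeR adjusted p = 8.02e-08). Pdia6, which also attenuates IRE1 and PERK signalling, had 369.7, 358 and 290.5 CPM, against 203, 227 and 225 in NF (0.63 ± 0.13, edgeR adjusted p = 2.99e-04). P4hb, Erp29 and Erp44 were higher by 0.59 ± 0.08, 0.44 ± 0.06 and 0.33 ± 0.09, all without overlap. All 4 translocon members were higher too, from 0.27 ± 0.09 for Ssr3 to 0.74 ± 0.08 for Ssr1.

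Of the 9 luminal chaperones and cofactors, 6 did not pass between CAF and NF, the classical ones among them. Hspa5 had 903, 939.7 and 851 CPM in CAF, against 969.6, 899 and 931 in NF (-0.06 ± 0.08), and Hsp90b1 had 1131, 1078 and 938 CPM, against 1181, 757 and 793 (0.20 ± 0.14), and neither passed. Manf (0.74 ± 0.11) and Dnajb9 (0.67 ± 0.14) were higher in CAF. Creld2, a thioredoxin-like chaperone, was the 1 member that was lower, with 52.9, 48.4 and 44.7 CPM in CAF, against 65.1, 59.7 and 58.0 in NF (-0.32 ± 0.08, edgeR adjusted p = 0.00132). Calr (-0.17 ± 0.11) and Canx (0.06 ± 0.08) did not pass, and Uggt1 was higher by 0.36 ± 0.07.

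Without vehicle replicate 1 of NF, the library with the highest mitochondrial share, 22 members passed, with Hsp90b1 higher (0.44, edgeR adjusted p = 0.00403) and Atf6b and Sdf2l1 lower (-0.29 and -0.43, adjusted p = 0.00248 and 0.0251). In that fit 8991 of 15436 genes passed. Without NF replicate 3, Eif2ak3 and Syvn1 passed as higher (adjusted p = 0.0201 and 0.0277), and with the replicate block Eif2ak3 also did (0.21, adjusted p = 0.0114). Ssr3 did not pass without CAF replicate 2 or NF replicate 2 (adjusted p = 0.0628 and 0.0819). In a fit of only these 2 groups Erp44 and Sec61b did not pass (adjusted p = 0.0587 and 0.0628) and Pdia3 did (0.37, adjusted p = 0.0347). The fibroblast markers, Thy1 among them, summed to 16027 to 18102 TPM in CAF, against 2824 to 4440 TPM in NF. The endothelial markers summed to 1.22 to 2.15 TPM, against 0.161 to 0.466 TPM, and the pericyte markers to 2.12 to 3.83 TPM, against 0.479 to 0.752 TPM. Mitochondrial genes took 1.70% to 1.87% of counts in the CAF libraries, all below the 2.19% to 4.30% in the NF libraries. The part of the markers and of this share in the differences was not tested.

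Members with an element in the promoter window were read beside those without. Of the 10 tested members with either ER stress response element 3 rose with TGFb1, namely Herpud1, Syvn1 and Hspa5, with a median log2 fold change of 0.19, where 14.6% of all genes tested rose. Of the 19 with a window and without either element 10 rose, with a median of 0.32. Between CAF and NF, Pdia6 was higher and Creld2 lower among the 10 with an element, with a median of 0.05, and 12 of the 19 without one were higher, with a median of 0.36, where 31.6% of all genes were higher and 30% lower. Whether the groups of members differ was not tested.

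With siHsp90aa1, Pdia3 fell more than any other member. Each target has a single siRNA condition, so loss of the target cannot be told apart from other effects of its siRNA. In CAF 4 of the 35 members rose and 3 fell with siHsp90aa1, where 25.4% of all genes tested passed, 12.5% higher and 12.9% lower. In NF with TGFb1 2 rose and 6 fell, where 28.3% of all genes passed, 14.8% higher and 13.5% lower. These counts, 7 and 8 of 35, are near the share of all genes, a little below it, and the gap was not tested. The members' median was 0.05 in CAF and -0.07 in NF, and that of all genes 0.03 and 0.01. With the replicate block 12 of 35 passed in CAF and 10 in NF, where 5198 and 5681 of 15230 genes did.

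Pdia3 (ENSMUSG00000027248, chr2:121413775-121438687, plus strand), also called ERp57, is the disulfide isomerase that works with calreticulin and calnexin on glycoproteins. In CAF it had 351, 305 and 226 CPM with siHsp90aa1, against 934, 886 and 807 with siCtr, 0.336 times the control level (-1.57 ± 0.19, edgeR adjusted p = 2.09e-05). In NF with TGFb1 it had 202, 282 and 409 CPM with siHsp90aa1, against 862, 785 and 820.3 with siCtr, 0.362 times the control (-1.47 ± 0.18, edgeR adjusted p = 2.84e-05). The groups were far apart in both kinds of cell, and the highest knockdown library, NF replicate 3, was still below every control. With siHsp90ab1, Pdia3 had 969, 930.5 and 872 CPM in CAF and 795, 799 and 835 CPM in NF, within or near the control values. By p-value Pdia3 ranked 80th of 15230 genes in CAF and 155th in NF. It passed under each of the 11 alternatives in either kind of cell, with adjusted p of at most 0.00398 in CAF and 0.00183 in NF. The 2 effects differed by -0.11 ± 0.26 (CAF minus NF, edgeR adjusted p = 0.878).

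Edem2, Ssr1 and Sel1l also passed in both kinds of cell and in the same direction. Edem2, an ERAD mannosidase, had 23.4, 23.6 and 21.7 CPM with siHsp90aa1 in CAF, against 32.5, 31.7 and 36.5 with siCtr (-0.55 ± 0.12, edgeR adjusted p = 0.00268). In NF it had 20.9, 23.9 and 29.5 CPM, against 32.2, 38.7 and 36.05 (-0.53 ± 0.12, edgeR adjusted p = 0.00345). Every knockdown library was below every control. Ssr1, the alpha subunit of the TRAP complex, had 267, 275 and 218 CPM in CAF with siHsp90aa1, against 339, 339.8 and 306 with siCtr (-0.37 ± 0.08, edgeR adjusted p = 0.00329). In NF it had 175, 195 and 213 CPM, against 254, 242 and 255 (-0.37 ± 0.08, edgeR adjusted p = 0.00338), near the 198, 187 and 204 CPM of NF with vehicle. Sel1l moved the other way, with 208, 212 and 214 CPM in CAF, against 135, 139 and 155 with siCtr (0.56 ± 0.09, edgeR adjusted p = 3.22e-04). In NF it had 76.3, 76.8 and 84.6 CPM, against 55.6, 63.2 and 68.9 (0.34 ± 0.09, edgeR adjusted p = 0.0118). The knockdown libraries were the higher ones in both kinds of cell. The CAF and NF knockdowns share no library, but they share the siRNA target and the replicate numbers, which the labels give as batches. The 4 genes are 57.1% of the 7 that passed in CAF and 50% of the 8 in NF, and 0 members passed in opposite directions. The overlap over all genes, of which 3867 passed in CAF and 4309 in NF, was not counted. The overlap is thus not read as particular to the members.

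**Figure D4:**
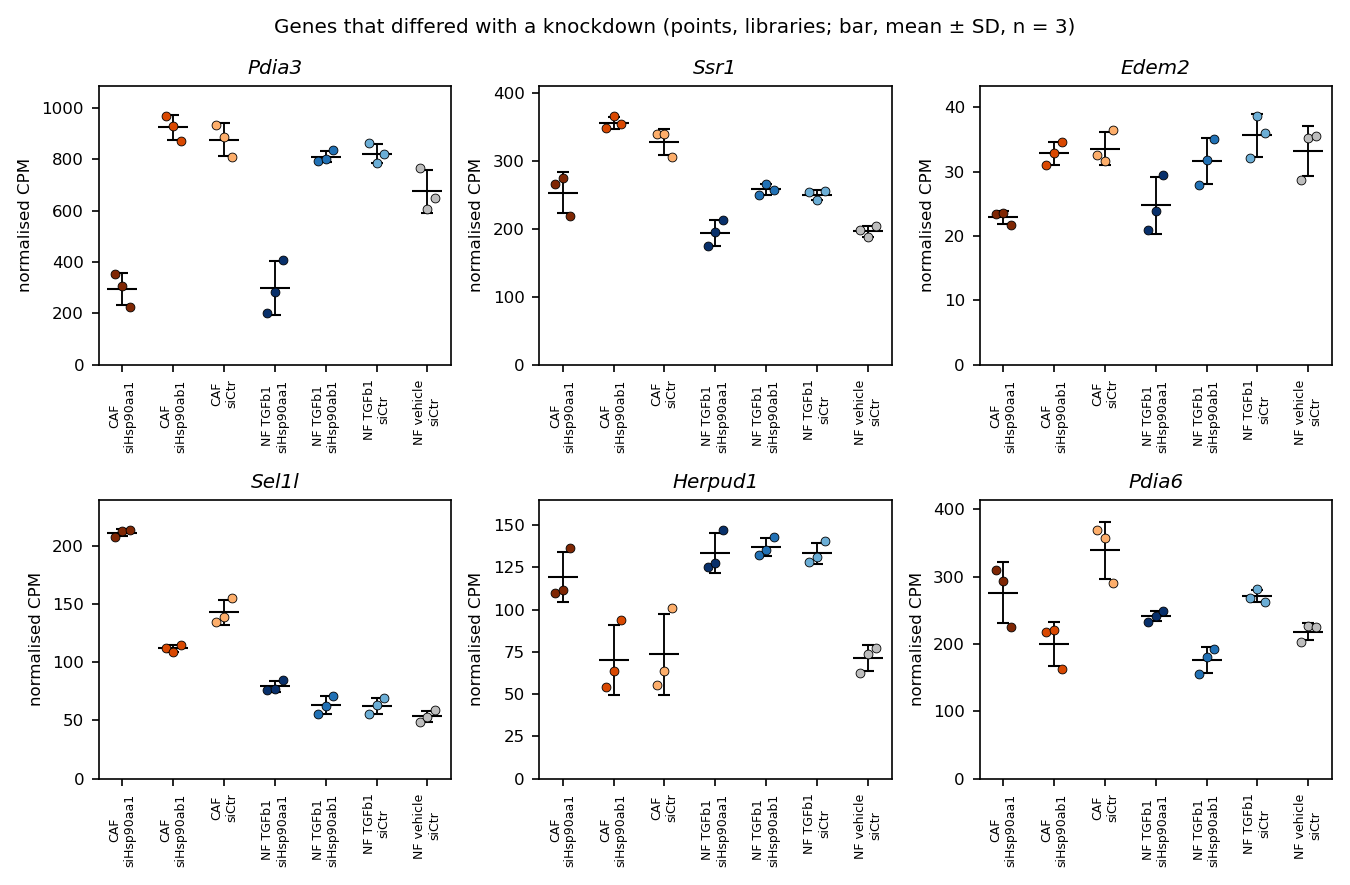
Normalised CPM (y axis, from 0) of 6 members that changed with a knockdown, by group (x axis); points are libraries and bars the mean ± SD (n = 3). Pdia3 lies between 202 and 409 CPM in the 6 libraries with siHsp90aa1 and at 608 CPM or above in all others, and Pdia6 is lowest with siHsp90ab1 within CAF and within NF.

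In CAF, 3 further members rose with siHsp90aa1. Herpud1 had 109.7, 112 and 137 CPM, against 55.5, 63.9 and 101 with siCtr, where replicate 3 was high (0.70 ± 0.19, edgeR adjusted p = 0.0123). Eif2ak3 had 50.9, 52.6 and 58.1 CPM, against 34.8, 35.98 and 41.5 (0.53 ± 0.11, edgeR adjusted p = 0.00180), and Derl1 204, 203 and 219.8 CPM, against 153, 152 and 170.2 (0.40 ± 0.14, edgeR adjusted p = 0.0403). None of the 3 overlapped between groups, where 20.9% of all genes tested had every knockdown library above every control in CAF. The rise of Derl1 did not pass when any library but CAF control replicate 3 was left out (adjusted p = 0.132 and 0.143 without control replicate 1 or 2, and 0.0746, 0.0776 and 0.143 without knockdown replicate 1, 2 or 3). That of Herpud1 did not pass without control replicate 1 or 2 or knockdown replicate 3 (adjusted p = 0.0790, 0.0695 and 0.0678), or in a fit of only these groups (0.0686). Atf6 passed without control replicate 1 (0.51, adjusted p = 0.0413) and Pdia6 as lower without control replicate 3 (-0.41, adjusted p = 0.0289). With the replicate block 12 members passed, 9 higher and 3 lower, where 5198 of 15230 genes passed. The added members were Atf6 (0.39), Dnajb9 (0.37), Edem1 (0.21), P4hb (0.18) and Txndc5 (0.18).

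In NF with TGFb1, 4 further members passed. Ssr3 fell to 334, 404 and 460.4 CPM with siHsp90aa1, against 569, 567 and 618 with siCtr and 410.0, 394 and 436 in NF with vehicle (-0.55 ± 0.09, edgeR adjusted p = 2.81e-04). Hyou1 had 234, 243 and 258 CPM, against 298, 307 and 284 (-0.27 ± 0.09, edgeR adjusted p = 0.0308), and Erp44 49.8, 53.4 and 54.8 CPM, against 65.0, 58.7 and 65.6 (-0.26 ± 0.09, edgeR adjusted p = 0.0296). Atf6b, the relative of ATF6, rose to 127, 117 and 114 CPM, against 81.8, 96.6 and 88.2 (0.43 ± 0.11, edgeR adjusted p = 0.00582). All 4 were without overlap, which in NF was so for 24.2% of all genes tested on the higher side and 22.5% on the lower. Xbp1 (-0.07 ± 0.14) and Herpud1 (0.00 ± 0.19), the members with the largest rise under TGFb1, did not pass with siHsp90aa1, nor did Hspa5 (-0.14 ± 0.08) or Hsp90b1 (-0.22 ± 0.14).

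Some of these calls in NF were lost without single libraries. Erp44 had adjusted p of 0.120 and 0.0581 without knockdown replicate 1 or 2 and 0.0889 and 0.0878 without control replicate 1 or 3. Hyou1 had 0.114 and 0.0801 without knockdown replicate 1 or 2 and 0.0790 and 0.0914 without control replicate 1 or 2. Sel1l had 0.0563 without knockdown replicate 3 and 0.0809 without control replicate 1. Without that control 5 members passed, where 2961 of 15538 genes did. With the replicate block Eif2ak3 (0.23, adjusted p = 0.0137) and Manf (-0.27, adjusted p = 0.0450) passed as well. The 6 epithelial markers summed to 0.678 to 0.845 TPM with siHsp90aa1, against 1.07 to 1.66 TPM with siCtr in NF. In CAF the 4 immune markers summed to 2.59 to 4.50 TPM, against 4.65 to 6.35 TPM, with Ptprc and Cd3e at or near 0, and the 5 fibroblast markers to 20057 to 21715 TPM, against 16027 to 18102 TPM. Their part in the changes was not tested.

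The number of members whose siHsp90aa1 effect differed between CAF and NF depended on the fit. It was 0 without the replicate block and 4 with it, and the latter is near the share of all genes in that fit. In the test of CAF minus NF without the block 0 of 35 passed in edgeR and 0 in DESeq2. Of all genes 5.46% passed in edgeR (2.44% more positive and 3.02% more negative in CAF), and DESeq2 called 1341 of 15230. In edgeR 5 members had an unadjusted p under 0.05. These 5 were Erp44 (0.34 ± 0.12), Ssr3 (0.37 ± 0.13), Sdf2l1 (-0.64 ± 0.25), Herpud1 (0.70 ± 0.27) and Dnajb9 (0.43 ± 0.20). Dnajb9 had the largest p of the 5 and ranked 2830th of 15230 genes by p, so at least 2830 genes lay under 0.05. The 5 are thus not read as a sign of a difference in the members. With the replicate block 4 of the 35 members passed, where 1871 of 15230 genes passed, against 832 without the block. The 4 are thus not read as particular to the members. Herpud1 (0.73, edgeR adjusted p = 0.0120), Dnajb9 (0.42, 0.0386) and Eif2ak3 (0.30, 0.0494) were more positive in CAF and Sdf2l1 (-0.66, 0.0442) more negative. Herpud1 also passed without CAF control replicate 3 (0.99, adjusted p = 0.0156), and Ssr3 without NF knockdown replicate 3 (0.47, adjusted p = 0.0221). CAF and NF differ here in TGFb1 too, so origin and treatment cannot be told apart in this test.

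**Figure D5:**
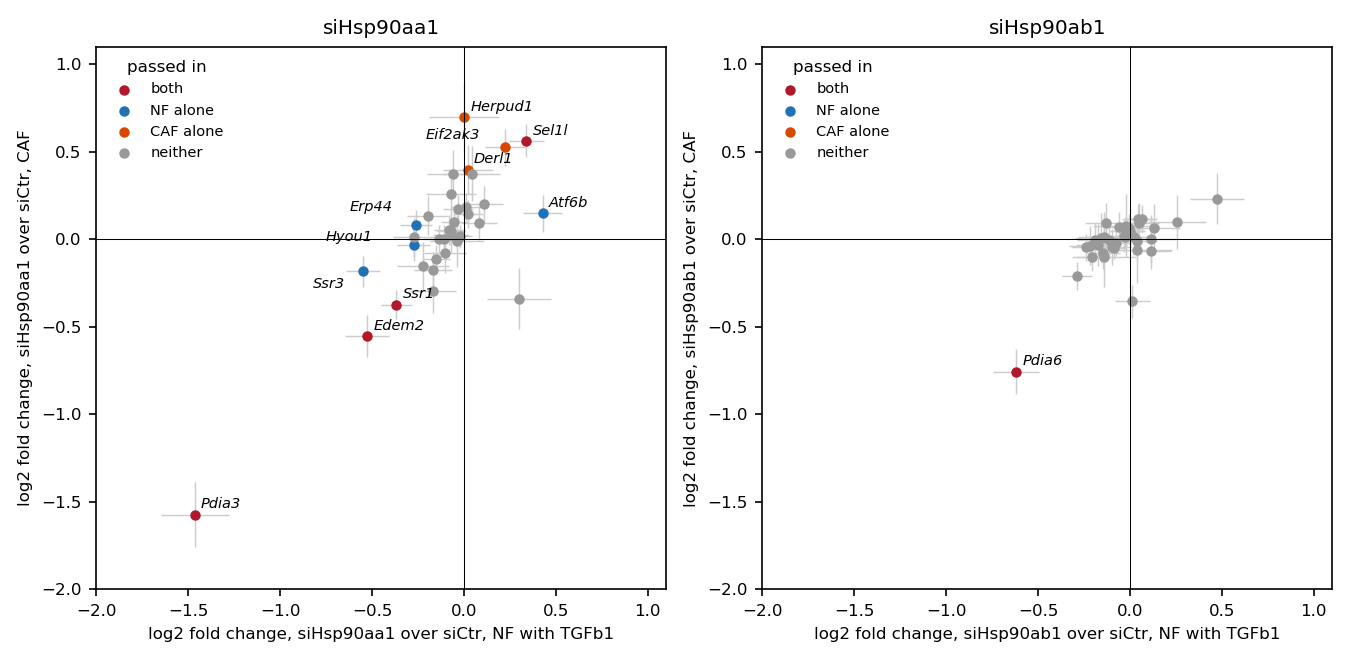
Log2 fold change of the 35 tested members with siHsp90aa1 (left) and siHsp90ab1 (right) over siCtr, in NF with TGFb1 (x axis) and in CAF (y axis); bars are SE and colours show where a member passed. Pdia3 stands apart at -1.47 in NF and -1.57 in CAF with siHsp90aa1, and Pdia6 at -0.62 and -0.76 with siHsp90ab1.

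With siHsp90ab1, Pdia6 was the 1 member past the threshold in CAF and in NF, and other fits called up to 2 members in CAF and 4 in NF. The counts were 1 of 35 in CAF, where 0.9% of all genes tested passed (0.466% higher, 0.433% lower), and 1 of 35 in NF, where 2.69% passed (1.06% higher, 1.62% lower). Counts this small are near the share of all genes and are read here for Pdia6 alone. Pdia6 (ENSMUSG00000020571, chr12:17266545-17284770, plus strand) fell to 218, 221 and 163 CPM with siHsp90ab1 in CAF, against 369.7, 358 and 290.5 with siCtr (-0.76 ± 0.13, edgeR adjusted p = 0.00594). In NF it fell to 156, 180.1 and 193 CPM, against 269, 281 and 263 (-0.62 ± 0.13, edgeR adjusted p = 0.0116). No knockdown library reached a control, and the NF values were also below the 203, 227 and 225 CPM of NF with vehicle. Pdia6 is among the 9 members with the first ER stress response element, while the windows of Pdia3, Edem2, Ssr1 and Sel1l hold neither. Of the 8 tested members with the first element, Pdia6 alone passed with siHsp90ab1. A link between element and change was not tested. By p-value Pdia6 ranked 34th of 15230 genes in CAF and 163rd in NF. The effects differed by -0.14 ± 0.18 (CAF minus NF, edgeR adjusted p = 1.000).

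The call of Pdia6 in NF was lost without control replicate 2 or knockdown replicate 1 or 2 (adjusted p = 0.0606, 0.0911 and 0.0516). In CAF it was lost in a fit of only the groups compared (0.164), with the fold at -0.76. With the replicate block 4 members passed in NF, with Ern1 higher (0.47) and Dnajc3, a BiP co-chaperone, and Creld2 lower (-0.29 and -0.23). In CAF 2 did, with Sel1l lower (-0.35, edgeR adjusted p = 0.00564). In these fits 902 of 15230 genes passed in NF and 360 in CAF. DESeq2 called 2 members in CAF, with Sel1l added, and 3 in NF, with Dnajc3 and Ern1 added. It called 322 of all genes in CAF and 709 in NF. Without the block, Sel1l in CAF had 112, 109 and 115 CPM with siHsp90ab1, against 135, 139 and 155 with siCtr, without overlap (adjusted p = 0.0951). In the test of CAF minus NF 0 members passed in edgeR and 0 in DESeq2. Of all genes 0.00657% passed in edgeR, and DESeq2 called 18 of 15230. In edgeR Sel1l alone of the members had an unadjusted p under 0.05 (-0.37 ± 0.13). The 4 endothelial markers summed to 2.65 to 4.72 TPM with siHsp90ab1 in CAF, against 1.22 to 2.15 TPM with siCtr, and their part was not tested.

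The 2 knockdowns were also set against each other, which does not use the control libraries. In CAF 6 members were higher and 3 lower with siHsp90aa1 than with siHsp90ab1, where 26.3% of all genes passed, 13.1% higher and 13.3% lower. In NF 5 were higher and 5 lower, where 34.1% passed, 17.7% higher and 16.4% lower. Pdia3 was lower with siHsp90aa1 by the largest margin, -1.65 ± 0.19 in CAF and -1.44 ± 0.18 in NF (edgeR adjusted p = 1.41e-05 and 1.37e-05). Pdia6 was higher, by 0.46 ± 0.13 and 0.45 ± 0.13 (edgeR adjusted p = 0.0127 and 0.0103). Sel1l and Dnajc3 were higher with siHsp90aa1 in both kinds of cell, Sel1l by 0.92 ± 0.09 in CAF and 0.33 ± 0.09 in NF and Dnajc3 by 0.36 ± 0.08 and 0.31 ± 0.08. Ssr1 and Edem2 were lower in both, Ssr1 at -0.49 and -0.41 and Edem2 at -0.52 and -0.35.

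Further members passed in CAF or in NF, and the difference between the kinds of cell was not tested here. In CAF, Herpud1 (0.76), Eif2ak3 (0.53) and Derl1 (0.40) were higher with siHsp90aa1. In NF, Atf6b (0.41) and Syvn1 (0.27) were higher and Ern1 (-0.51) and Ssr3 (-0.52) lower. With the replicate block 13 members passed in CAF and 12 in NF, where 5412 and 6420 of 15230 genes passed. The block added Atf6 (0.28), Dnajb9 (0.36), Edem1 (0.27) and P4hb (0.20) in CAF. In NF it added Eif2ak3 (0.19, edgeR adjusted p = 0.0352) and Sdf2l1 (0.44). In a fit of only the groups compared, Pdia6 in CAF and Edem2 in NF did not pass (edgeR adjusted p = 0.0804 and 0.0679). That fit added Dnajb9 (0.35) and Ern1 (-0.26) in CAF, and Eif2ak3 (0.18), Sdf2l1 (0.44), Erp44 (-0.20), Sec61a1 (-0.25) and Sec61b (-0.17) in NF.

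Many of these calls were lost without single libraries, with edgeR adjusted p given here. In NF, 6 members passed without siHsp90ab1 replicate 1, when Ern1, Pdia6, Sel1l and Syvn1 did not (0.0697, 0.0703, 0.0900 and 0.141). In that fit 3841 of 15447 genes passed. Ern1 and Sel1l also did not pass without siHsp90aa1 replicate 3 (0.0612 and 0.0595), when Sec61a1 and Xbp1 passed as lower (-0.35 and -0.38). Syvn1 did not pass without siHsp90aa1 replicate 1, 2 or 3 (0.0778, 0.0588 and 0.112) or siHsp90ab1 replicate 2 (0.0930). Edem2 did not pass without siHsp90aa1 replicate 1 or 2 or siHsp90ab1 replicate 2 or 3 (0.167, 0.0891, 0.0671 and 0.127). In CAF, Pdia6 did not pass without siHsp90aa1 replicate 1 or 2 or siHsp90ab1 replicate 3 (0.0726, 0.0552 and 0.0693), and Herpud1 without siHsp90ab1 replicate 1 (0.0518). Derl1 did not pass without siHsp90aa1 replicate 1, 2 or 3 (0.0716, 0.0735 and 0.141) or siHsp90ab1 replicate 1 or 2 (0.148 and 0.129), and Edem1 passed as higher without siHsp90ab1 replicate 3 (0.33).

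Other genes of the secretory pathway were grouped into 7 further lists, which were read with TGFb1 first, where 14.6% of all genes rose and 14.4% fell. Of 18 genes of COPII export from the ER 15 rose and 0 fell (median 0.41; 16 passed at an unadjusted p under 0.05), led by the KDEL receptor Kdelr3 (1.37 ± 0.16). Of 13 genes of the PERK and ATF4 arm 7 rose and 0 fell (median 0.54), with the transcription factor Atf4 at 0.78 ± 0.08 and its target Chac1 at 1.41 ± 0.18. Of 20 further translocon and signal peptide genes 9 rose and 0 fell (median 0.20), and of 17 N-glycosylation genes 9 rose and 0 fell (median 0.19). Of 20 other ERAD genes 6 rose and 1 fell (median 0.12), and of 19 tested ER redox genes 8 rose and 3 fell (median 0.19), with the isomerase Pdia5 at 0.86 ± 0.05. Of 7 ER membrane transcription factors and their proteases 3 rose and 1 fell, and Creb3l1, a relative of ATF6 known to drive collagen genes, rose by 2.51 ± 0.20.

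Between CAF and NF, 31.6% of all genes were higher and 30% lower, and 61.6% passed in all. Here 16 of the 19 ER redox genes were higher and 1 lower (median 0.62), with Pdia5 at 1.82 ± 0.05. Of the COPII genes 14 were higher and 3 lower (median 0.49), of the N-glycosylation genes 10 and 0 (median 0.26), of the other ERAD genes 9 and 3 (median 0.14) and of the translocon genes 8 and 3 (median 0.19). The shares of the translocon, N-glycosylation and other ERAD genes that passed, and that of the PERK and ATF4 arm, were below that of all genes. Of the 7 ER membrane transcription factors and their proteases 4 were higher and 3 lower, from -1.59 to 4.27 (median 0.72), and Creb3l1 was higher by 2.76 ± 0.20. The PERK and ATF4 arm had 4 higher and 4 lower (median 0.04), with Atf3, a stress-induced factor, at -2.51 ± 0.37.

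Under siHsp90aa1, 35 of the 114 genes tested in these lists rose and 8 fell in CAF, and 20 rose and 21 fell in NF. Of 20 other ERAD genes 7 rose and 3 fell in CAF, and 5 rose and 6 fell in NF. Of 18 COPII genes 6 rose and 0 fell in CAF, and 1 rose and 1 fell in NF. The PERK and ATF4 arm held 4 of the 9 genes of these lists that passed in the test of CAF minus NF without the block. In CAF 8 of its 13 genes rose and 1 fell (median 0.44), where 12.5% of all genes rose and 12.9% fell. In NF 1 rose and 5 fell (median -0.23), where 14.8% of all genes rose and 13.5% fell. Atf4 changed by 0.38 ± 0.08 in CAF and -0.41 ± 0.08 in NF, and the difference passed (0.79 ± 0.12, CAF minus NF, edgeR adjusted p = 0.00112). Ppp1r15b, a subunit of the phosphatase that reverses PERK signalling, fell in both (-0.36 ± 0.07 and -0.51 ± 0.07). Ero1l, the oxidase that recharges the disulfide isomerases, rose in CAF (0.84 ± 0.09, edgeR adjusted p = 9.56e-06). With siHsp90ab1, 0 genes of this arm passed in either kind of cell in edgeR, with 1 in CAF and 5 in NF at an unadjusted p under 0.05.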

How the data were processed

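Expected counts per gene, estimated with Salmon and deposited by the authors for 21 libraries, were used with their deposited TPM. STAR, Salmon and GRCm38 are named per the submitters' processing notes, and the sources used here give no versions or settings. Libraries were stranded mRNA per the labels' protocols. Because 10.9% of values were not whole, expected counts were rounded. Genes kept by filterByExpr (minimum count 10, minimum total 15) were fitted with edgeR 4.0.16 in R 4.3.3 (TMM scaling, quasi-likelihood test, prior count 0.125) over all 21 libraries with 1 coefficient per group, and p-values were adjusted over 15230 genes. The difference between knockdown effects was a contrast of the same fit. SE is the log2 fold change divided by the root of F. The steps were tested on simulated counts. Depth was 35087180 to 70421576 counts per library.

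Replicate numbers pair libraries because the labels give each number as a batch. The main fit left this number out, and a fit with it as a block was an alternative. Over 9205 genes with a mean of at least 10 CPM, deviations from the group means had a mean correlation of 0.338 in the 63 pairs of libraries with the same number (range -0.0706 to 0.899, 56 above 0.1), and -0.163 between other numbers. Alternatives were the replicate block, RLE size factors, DESeq2 1.42.0, no filter, a fit of only the groups compared and leaving out each library. Members and lists were chosen with earlier results of these data known. Any of the 36 members could be named; from other lists, the 3 genes with the smallest p among those that passed, and their values in other comparisons. Protein sequences were not used here.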

Additional observations from a re-analysis of the deposited data

Results flagged for a closer look

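In the test of the siHsp90aa1 effect in CAF minus that in NF, 0 of the 35 tested members passed in edgeR without the replicate block and 4 with it (Herpud1, Dnajb9, Eif2ak3 and Sdf2l1). With the block 1871 of 15230 genes passed, so 4 of 35 members is near the share of all genes. Of the 114 genes tested in the other lists 9 passed without the block, all more positive in CAF, a share of 7.89%, where 5.46% of all genes tested passed. The log2 differences were 0.79 ± 0.12 (SE) for Atf4, 1.02 ± 0.25 for Chac1, 0.68 ± 0.17 for the asparagine synthetase Asns and 0.54 ± 0.12 for Cebpg, a partner of ATF4 (edgeR adjusted p = 0.00112, 0.0251, 0.0249 and 0.0127). These 4 belong to the PERK and ATF4 arm. Among redox genes they were 0.67 ± 0.13 for Ero1l and 0.37 ± 0.07 for Pdia5 (edgeR adjusted p = 0.00604 and 0.00578). The ERAD genes Vimp and Selk differed by 0.40 ± 0.11 and 0.41 ± 0.12, and Dad1, a subunit of the oligosaccharyltransferase, by 0.34 ± 0.09 (edgeR adjusted p = 0.0434, 0.0455 and 0.0454). The NF libraries had TGFb1 and the CAF libraries did not, so treatment and origin cannot be told apart.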

How the results depend on the processing

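Over all members, comparisons and alternatives, 4129 values kept their side of the threshold, 77 no longer passed and 64 newly passed. Of the values that passed in the main fit or in the alternative, 0 reversed direction. For values that passed in neither, a change of direction was not counted. With the replicate block, the number of members that passed was 4 for the siHsp90aa1 effect in CAF minus NF (0 without it), 12 for siHsp90aa1 in CAF (7 without it), 2 for siHsp90ab1 in CAF and 4 for siHsp90ab1 in NF (1 each without it), and no other count moved by over 1.5 times. DESeq2 called 2 and 3 members for siHsp90ab1 in CAF and NF, and a fit of only the groups compared 0 and 2. Most added or lost members are named beside the results. DESeq2 also added Dnajb9 for siHsp90aa1 in CAF and Sdf2l1 for siHsp90aa1 against siHsp90ab1 in NF (DESeq2 adjusted p = 0.0490 and 0.0472). The fit of the groups compared also added Dnajb9 and Manf for siHsp90aa1 in CAF and NF and Dnajc3 for siHsp90ab1 in NF (edgeR adjusted p = 0.0336, 0.0308 and 0.0495). Without the low-count filter, Derl1 in CAF and Syvn1 in NF were lost between the 2 knockdowns (edgeR adjusted p = 0.0532 and 0.0733). Leaving out single libraries gave 18 to 22 members for CAF against NF, 14 to 18 for TGFb1, 5 to 8 and 5 to 7 for siHsp90aa1 in CAF and NF, 1 to 1 and 0 to 1 for siHsp90ab1 in CAF and NF, 7 to 9 and 6 to 9 for siHsp90aa1 against siHsp90ab1 in CAF and NF, and 0 to 1 and 0 to 0 for the effects of siHsp90aa1 and siHsp90ab1 in CAF minus NF. Why these counts moved was not tested. With the block more of all genes passed as well, as given beside the results. Without the filter on low counts, the rises of Syvn1 with TGFb1 (adjusted p = 0.0518) and Derl1 with siHsp90aa1 in CAF (0.0730) and the falls of Hyou1 and Erp44 with siHsp90aa1 in NF (0.0642 and 0.0600) did not pass. With 3 libraries per group from a single line of each kind, small changes in members with a large spread between replicates could not be detected.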
